A study of Rattus norvegicus with 12 samples.

Results

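The metallothionein genes Mt1 and Mt2A and the zinc importer gene Slc39a14 were examined in denervated and control rat laryngeal muscle. They were picked by gene symbol, because Mt1 and Mt2A stood higher in the injured laryngeal adductor complex, and all 3 were among the 14329 genes measured. Metallothioneins are small cysteine-rich proteins that bind zinc and copper inside cells. Their genes are known to be switched on by the zinc sensor Mtf1, and also by glucocorticoids and by interleukin-6. Slc39a14 (also called ZIP14) sits in the cell membrane and carries zinc, iron and manganese inward, and is known in mouse liver as an importer induced by interleukin-6.

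The animals were male F344 rats, all anaesthetised with ketamine and xylazine. Injured rats lost a 1 cm piece of the recurrent laryngeal nerve on a single side, and controls had the same approach to the nerve without damage to it. Both were studied 1 week later, with 10 animals per kind of surgery. The muscles were the posterior cricoarytenoid muscle (PCA), which opens the vocal folds, and the adductor complex (AC), which closes them, and 3 whole-transcript arrays represented each of PCA injury, PCA control, AC injury and AC control. The labels do not say which animal gave which array or whether specimens were pooled, so each p-value measures the spread between arrays, which may be technical. All values below are log2 expression or differences of it.

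Skeletal muscle markers were high in all 12 arrays: the mean over 8 measured genes lay between 11.72 and 12.33. In 3 arrays (PCA injury 2, PCA control 1 and AC injury 2) thyroid and parathyroid markers averaged 8.76 to 10.45, against 6.29 to 7.37 in the other 9. Squamous epithelium markers averaged 10.65 to 11.19 in PCA injury, against 8.06 to 10.24 in PCA control, and 10.82 to 11.21 in AC injury, against 11.17 to 11.53 in AC control. Of the 12 denervation response genes measured, 9 rose and 2 fell in the injured PCA, where 13.3% of all genes were called higher and 12.5% lower. In the injured AC 9 rose, against 1.15% of all genes called higher. The 2 that fell were Trim63 (-1.13 ± 0.21) and Fbxo32 (-0.66 ± 0.18, named after its value was seen). The acetylcholine receptor subunit Chrna1, known to rise when muscle loses its nerve, was among those that rose. Its log2 differences were 1.96 ± 0.37 in PCA and 2.84 ± 0.37 in AC (SE from limma, n = 3 arrays per group). The AC count was 0 without AC control 2, 0 without AC injury 2 and 5 without AC injury 3. It was 1 without all 3 arrays high in thyroid markers. Over all genes these fits called 14, 13, 52 and 10 in AC.

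The upstream sequences of the metallothionein genes are shown because both genes moved together in the arrays and because Mtf1 is known to act through a short DNA motif, the metal response element. In the RefSeq annotation of GRCr8, Mt1, Mt2A, Mt3 and Mt4 follow each other on chromosome 19. The 250 bases before the annotated start of Mt1 lie at chr19:10832976-10833225 and those of Mt2A at chr19:10838709-10838958, both read from the minus strand. Capitals mark the core of the metal response element, TGCACNC or TGCGCNC on either strand.
Mt1: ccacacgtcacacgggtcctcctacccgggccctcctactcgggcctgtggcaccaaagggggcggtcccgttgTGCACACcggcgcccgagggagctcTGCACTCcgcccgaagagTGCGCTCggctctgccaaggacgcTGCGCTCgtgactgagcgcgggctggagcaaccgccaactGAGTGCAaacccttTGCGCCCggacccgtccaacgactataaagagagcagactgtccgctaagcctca
Mt2A: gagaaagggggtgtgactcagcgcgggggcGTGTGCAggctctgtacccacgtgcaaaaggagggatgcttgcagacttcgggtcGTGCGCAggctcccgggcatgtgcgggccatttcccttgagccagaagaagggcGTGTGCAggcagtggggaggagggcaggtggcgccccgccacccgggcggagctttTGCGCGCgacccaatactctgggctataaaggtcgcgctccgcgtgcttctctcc
The Mt1 window held 6 matches, 5 of them on the strand of the gene, and the Mt2A window held 4, of which 1 lay on the strand of the gene. No match overlapped another. Each gene had a match whose first base lay at position -55 from the start, on the strand of the gene. Among 33469 rat promoter windows of the same length, 20.6% held at least 1 match, 0.266% at least 4 and 0.0269% at least 6. GC content was 66.4% for Mt1 and 66% for Mt2A. Among the 8454 windows with 60% GC or more, 0.852% held at least 4 matches and 0.071% at least 6. The Mt3 window held 3 matches, that of the zinc exporter Slc30a1 2, that of Mtf1 itself 2 and that of Mt4 1. A match is a likeness of letters and not a shown binding site.

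**Figure D1:**
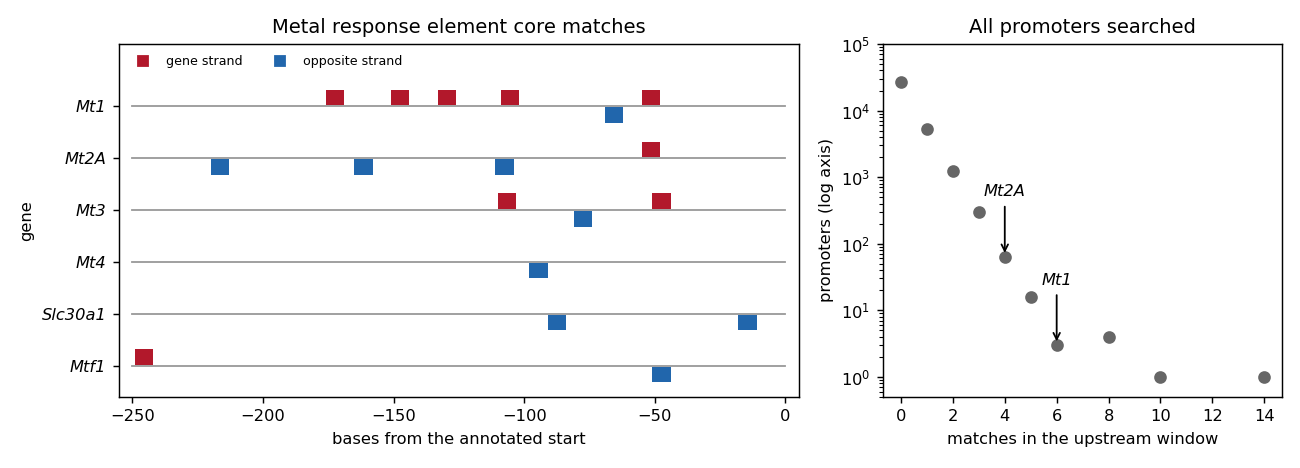
Left, positions of metal response element core matches in bases before the annotated start (red, strand of the gene; blue, opposite strand). Right, number of promoter windows (log axis) by number of matches; Mt1 had 6 matches and Mt2A 4, and most windows had 0.

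Mt1 stood higher in every injured array than in the control arrays of its own muscle. It measured 11.08, 10.96 and 10.96 in PCA injury 1, 2 and 3, against 10.34, 10.66 and 10.71 in PCA control 1, 2 and 3. In the adductor it measured 11.72, 11.48 and 11.15 in AC injury 1, 2 and 3, against 10.30, 10.57 and 10.79 in AC control 1, 2 and 3. The injured PCA arrays were nearly equal, whereas the AC injury arrays spread over a wider range. The means were 11.00 ± 0.07 in PCA injury and 10.57 ± 0.20 in PCA control, and 11.45 ± 0.29 in AC injury and 10.55 ± 0.25 in AC control (SD, n = 3 each). The order of the groups from high to low was therefore AC injury, PCA injury, PCA control and AC control. AC injury did not overlap with PCA injury, and PCA injury did not overlap with PCA control. The share of all genes with the first separation was not counted, and the AC injury arrays had a part in the choice. The 2 control groups overlapped almost fully, with a difference of 0.02 ± 0.16 for PCA minus AC.

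Mt2A, the other widely expressed metallothionein gene, showed the same order at the top. It measured 12.55, 12.41 and 12.46 in PCA injury 1, 2 and 3, against 11.77, 12.04 and 12.05 in PCA control 1, 2 and 3. AC injury 1, 2 and 3 had 13.06, 13.00 and 12.61, against 11.83, 11.87 and 12.27 in AC control 1, 2 and 3. As for Mt1, all injured arrays lay above all controls of the same muscle. Over all genes 18.2% showed this in PCA and 15.3% in AC. AC injury also lay wholly above PCA injury, a share not counted over all genes, and AC injury 3 was the lowest of its group. The means were 12.47 ± 0.07 in PCA injury and 11.95 ± 0.16 in PCA control, and 12.89 ± 0.24 in AC injury and 11.99 ± 0.24 in AC control (SD, n = 3 each). Here the mean of PCA control was the lowest, below that of AC control, but these groups overlapped, at -0.04 ± 0.14 for PCA minus AC. Both lay below every PCA injury array.

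Slc39a14 did not follow the metallothioneins in the PCA. It measured 9.74, 8.82 and 8.81 in PCA injury 1, 2 and 3, against 9.09, 8.94 and 9.22 in PCA control 1, 2 and 3. PCA injury 1 lay above all PCA controls and the other 2 injured arrays lay below them. In the adductor it measured 8.99, 9.60 and 9.02 in AC injury 1, 2 and 3, against 8.30, 8.61 and 8.71 in AC control 1, 2 and 3, and the groups did not overlap. The means were 9.12 ± 0.53 in PCA injury and 9.08 ± 0.14 in PCA control, and 9.20 ± 0.34 in AC injury and 8.54 ± 0.21 in AC control (SD, n = 3 each). The order was AC injury, PCA injury, PCA control and AC control. The first 3 groups overlapped with each other, and AC control lay below all arrays of the other 3 groups. How many of all genes show this was not counted. The difference between PCA control and AC control was 0.54 ± 0.24, which was not tested because the AC control arrays had a part in the choice.

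**Figure D2:**
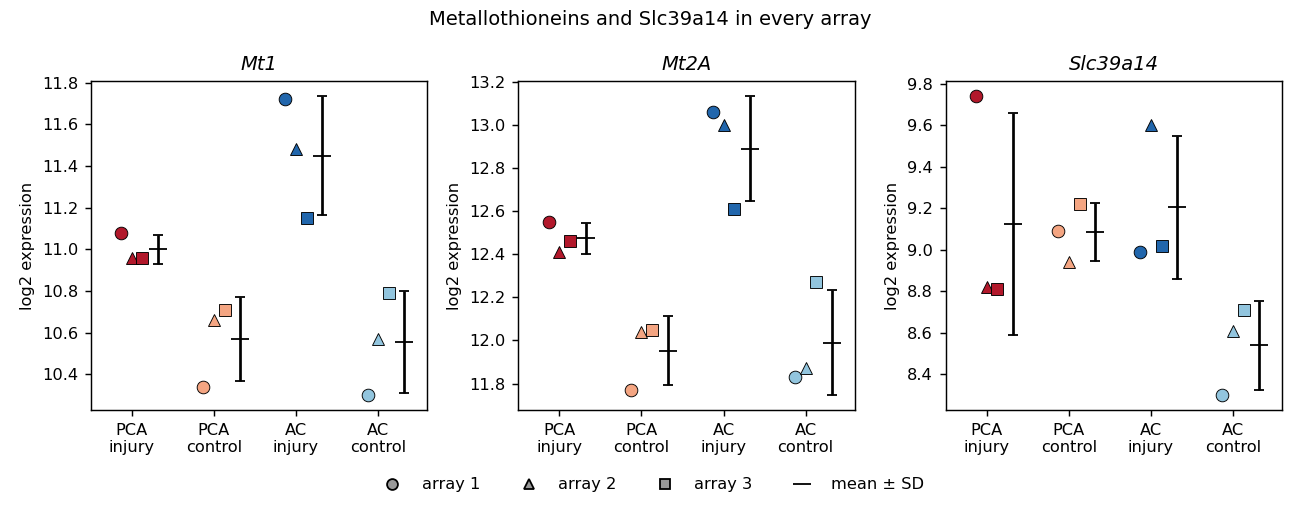
Log2 expression of Mt1, Mt2A and Slc39a14 in each of the 12 arrays by group, with array 1, 2 and 3 as circle, triangle and square and the mean ± SD beside them. Both metallothioneins lie higher in every injured array than in the controls of the same muscle, while Slc39a14 in PCA injury is split between 9.74 and 2 arrays at 8.81 and 8.82.

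The question asked of the PCA was whether the members differed after nerve injury in a muscle that was not the stated reason for choosing them. The test is not fully independent of the choice. Earlier results of these data were known when the members were chosen, and the AC arrays enter the shared estimate of the spread. Mt2A rose by 0.52 ± 0.14, a 1.43-fold change (limma, adjusted p = 0.022, 95% interval 0.20 to 0.84). Mt1 was 0.43 ± 0.16 higher, 1.35-fold, and did not pass the test after adjustment over all genes (limma, adjusted p = 0.0707, 95% interval 0.08 to 0.78), although its 3 injured arrays all lay above the 3 controls. Slc39a14 differed by 0.04 ± 0.24 (limma, adjusted p = 0.931, 95% interval -0.49 to 0.57). Of the 3 members 1 was thus called, where 25.8% of all genes were called and 13.3% were called higher in PCA injury. For 2 of the 3, all injured arrays lay above all controls, as they did for 18.2% of all genes. The difference was larger than that of Mt2A in 8.59% of genes and larger than that of Mt1 in 10.7%, where the median gene was at -0.03.

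Single arrays decided part of this. Without PCA control 1, the lowest PCA control for both metallothioneins and an array high in thyroid markers, Mt2A was at 0.43 (adjusted p = 0.0802), and without PCA injury 1 it was at 0.48 (adjusted p = 0.0713). Without all 3 arrays high in thyroid markers it was at 0.46 (adjusted p = 0.121). Over 25 alternative settings its adjusted p ran from 0.0131 to 0.91 and 20 settings kept the call. Mt1 passed in 1 of the 25, without AC injury 3, with an adjusted p of 0.0465 in limma. Its difference stayed at 0.43 there, and the SE was 0.14 against 0.16 with all arrays. Over all 25 its adjusted p ran from 0.0465 to 0.944. Slc39a14 turned to -0.27 (adjusted p = 0.361) without PCA injury 1.

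**Figure D3:**
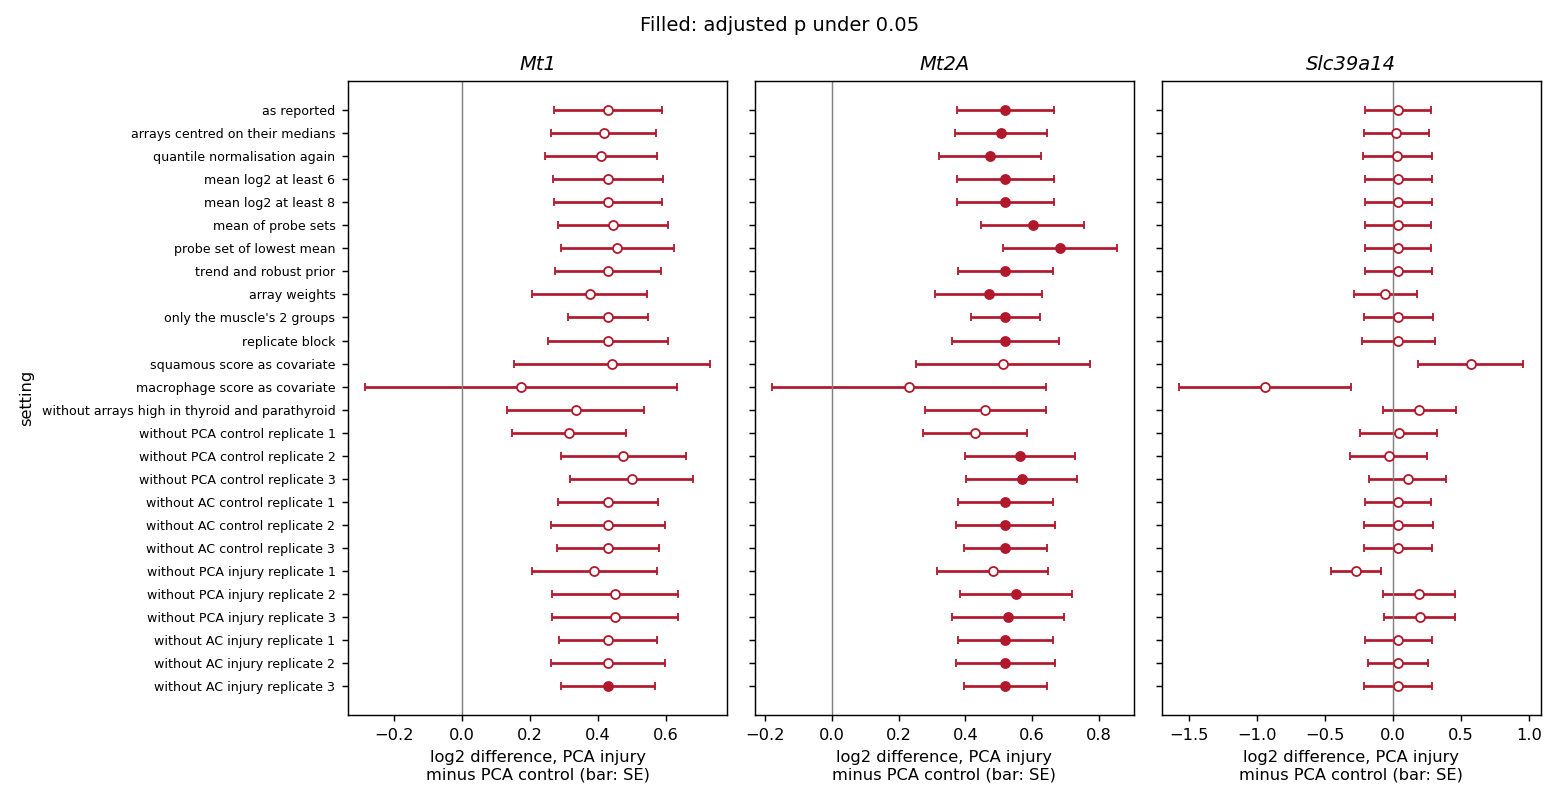
Log2 difference of each gene between PCA injury and PCA control (bars, SE from limma) as reported and under the 25 alternative settings, filled where the adjusted p was under 0.05. The horizontal axes differ between genes. The estimates for Mt2A and Mt1 stay above 0 throughout, and those for Slc39a14 lie on either side of 0. Several settings repeat the reported estimate by design.

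In the AC the members' differences are given as a description, since they were chosen from this comparison. The difference between AC injury and AC control was 0.90 ± 0.16 for Mt1 (1.86-fold), 0.90 ± 0.14 for Mt2A (1.87-fold) and 0.66 ± 0.24 for Slc39a14 (1.58-fold). All 3 members had injured arrays wholly above the controls, a pattern that 15.3% of all genes showed in this muscle, and 1.91% of genes passed the limma test in either direction. Against the mean of their controls, the AC injury arrays were higher by 0.60 to 1.17 for Mt1 and by 0.62 to 1.07 for Mt2A. The PCA injury arrays were higher than their control mean by 0.39 to 0.51 for Mt1 and by 0.46 to 0.60 for Mt2A. Each AC injury array thus exceeded each PCA injury array in this measure for both genes. The share of all genes with this order was not counted. The injury difference in AC minus that in PCA was 0.47 ± 0.23 for Mt1, 0.38 ± 0.20 for Mt2A and 0.62 ± 0.34 for Slc39a14. With the macrophage marker mean as a covariate the AC differences were 0.78 for Mt1, 0.76 for Mt2A and 0.20 for Slc39a14. The differences between muscles were not tested, as they contain the arrays used for the choice.

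Each metallothionein was read by 2 probe sets, and the second gave the same picture. The second probe set of Mt1 differed by 0.46 ± 0.17 in PCA (adjusted p = 0.0658 when it replaced the first) and by 0.96 ± 0.17 in AC. That of Mt2A differed by 0.68 ± 0.17 in PCA (adjusted p = 0.0131) and by 1.02 ± 0.17 in AC. Within a gene the probe sets correlated across the 12 arrays with a Pearson r of 0.999 for Mt1 and 0.989 for Mt2A. Both read the same RNA on the same arrays, so the second is no independent reading of a difference. How far their target sequences overlap was not examined. The genes are close relatives, and how far the probes of either gene also bind transcript of the other was not tested. Slc39a14 had 1 probe set.

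Mt1 and Mt2A were each other's closest match among 5295 genes that varied across the arrays, with a Pearson r of 0.98 over the 12 arrays and of 0.93 after each group's mean was subtracted. These values are descriptive, since the arrays share groups and a normalisation. After Mt2A, the genes most like Mt1 were Daw1, a dynein assembly factor (r = 0.92), Chrd, the BMP antagonist chordin (0.91), Dclk1, a doublecortin-like kinase (0.91), and Rhoc, a small GTPase (0.90). With the group means subtracted, r with Mt1 was 0.76 for Daw1, 0.57 for Chrd, 0.69 for Dclk1 and 0.59 for Rhoc. Dclk1 differed between injury and control by 1.15 ± 0.19 in PCA and 1.25 ± 0.19 in AC, and Rhoc by 0.33 ± 0.08 in PCA and 0.40 ± 0.08 in AC. After Mt1, the genes most like Mt2A were Rhoc (0.94), Dclk1 (0.93), the endothelial adhesion gene Sele (0.92) and Daw1 (0.92). Slc39a14 ranked only 1276th for Mt1 and 1440th for Mt2A, with an r of 0.51 to each. Its own closest genes were Ccn1, a matricellular protein (r = 0.92 over 12 arrays), the tyrosine kinase Fes (0.88), Gpr33-ps1 (0.88), Tmem268 (0.88) and the glycosyltransferase Gcnt2 (0.87). Their r with Slc39a14 stayed between 0.82 and 0.91 after group means were subtracted, in the same arrays that chose these genes.

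Markers of several other cell types differed between injured and control arrays. In a bulk specimen, a change in the share of a cell type and a change of transcript within cells cannot be told apart. Over all genes, limma called 13.3% higher and 12.5% lower in PCA injury, and 1.15% higher and 0.761% lower in AC injury. Of 12 macrophage markers 11 rose in the injured PCA and 3 in the injured AC. In the AC 10 of the 12 had an unadjusted p under 0.05 in limma, with a median difference of 0.78. The macrophage mean was 9.98 to 10.50 in PCA injury, against 8.22 to 8.91 in PCA control. It was 9.75 to 10.22 in AC injury, against 9.10 to 9.39 in AC control. Across the 12 arrays r with the macrophage mean was 0.70 for Mt1 and 0.76 for Mt2A, or 0.19 and 0.25 after group means were subtracted. Of 9 fibroblast markers 7 rose in the injured PCA and 1 in the injured AC, where 7 had an unadjusted p under 0.05 in limma. Their median difference in the AC was 0.69. The fibroblast mean was 11.40 to 11.81 in PCA injury, against 10.41 to 10.89 in PCA control. It was 11.32 to 11.70 in AC injury, against 10.71 to 11.22 in AC control. In the PCA 9 of 10 adipocyte and 10 of 11 cartilage markers fell, with adipocyte means of 7.59 to 8.19 in PCA injury, against 8.81 to 9.22 in PCA control, and cartilage means of 8.23 to 8.54 in PCA injury, against 9.40 to 10.07 in PCA control. In the AC 4 of 9 neutrophil and 2 of 5 red cell markers fell, with neutrophil means of 6.06 to 6.65 in AC injury, against 7.22 to 7.76 in AC control, and red cell means of 7.19 to 7.85 in AC injury, against 8.37 to 9.09 in AC control. Of the marker means, that of fibroblasts had the highest r with both metallothioneins. It was 0.76 for Mt1 and 0.82 for Mt2A, or 0.28 and 0.42 after group means were subtracted. The part of these cell types in the metallothionein values was not tested. With the macrophage mean as a covariate, Mt1 was at 0.18 ± 0.46 (adjusted p = 0.944) and Mt2A at 0.23 ± 0.41 (adjusted p = 0.91) in PCA, a fit in which 0 genes were called by limma and 1203 had an unadjusted p under 0.05. With the squamous mean as a covariate Mt2A was at 0.51 ± 0.26 (adjusted p = 0.314), in a fit where limma called 354 genes.

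For Slc39a14 the 2 highest arrays, PCA injury 1 at 9.74 and AC injury 2 at 9.60, were also the 2 arrays with the lowest skeletal muscle marker mean, 11.72 and 11.89. PCA injury 2 and AC control 2 had the next lowest muscle mean, 11.95 each, with Slc39a14 at 8.82 and 8.61. Across the 12 arrays r between Slc39a14 and the muscle mean was -0.47, and -0.77 after group means were subtracted. Schwann cell markers tracked Slc39a14 as closely, with an r of -0.79, or -0.74 after group means were subtracted, and red cell markers had an r of -0.77, or -0.53. Of the marker means with a positive r to Slc39a14, endothelium had the highest, 0.69, or 0.40 after group means were subtracted. The skeletal muscle values for Mt1 were -0.35 and -0.04, and for Mt2A -0.38 and -0.00. PCA injury 1 also had the highest macrophage mean (10.50) and the highest fibroblast mean (11.81) of the 12 arrays. The part of any of these cell types in the Slc39a14 values was not tested.

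Of the other metallothionein genes, Mt4, known from stratified squamous epithelium, changed in the PCA and Mt3, known from brain, did not pass. Mt4 measured 8.65, 9.19 and 9.15 in PCA injury 1, 2 and 3, against 6.35, 7.98 and 6.50 in PCA control 1, 2 and 3. It rose by 2.05 ± 0.44 (limma, adjusted p = 0.00646). In the AC it was at -0.26 ± 0.44 (adjusted p = 0.799), with 8.67 to 9.30 in AC injury, against 8.56 to 10.08 in AC control. Of the 6 squamous epithelium markers measured, 5 rose in PCA injury, where 13.3% of all genes were called higher. In AC injury 0 passed by limma (0 at an unadjusted p under 0.05), where 1.91% of all genes were called. Mt4 followed the squamous mean across the 12 arrays with an r of 0.96, or 0.81 after group means were subtracted. With the cartilage mean, which was lower in PCA injury, Mt4 had an r of -0.91, or -0.88 after group means were subtracted. With the squamous mean as a covariate Mt4 was at 0.40 ± 0.48 (adjusted p = 0.725), and without the 3 arrays high in thyroid markers at 1.66 ± 0.54 (adjusted p = 0.0699). Mt2A had an r of 0.38 with the squamous mean, or 0.01 with group means subtracted. Mt3 was at 0.10 ± 0.36 in PCA (adjusted p = 0.883) and 0.13 ± 0.36 in AC (adjusted p = 0.878).

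**Figure D4:**
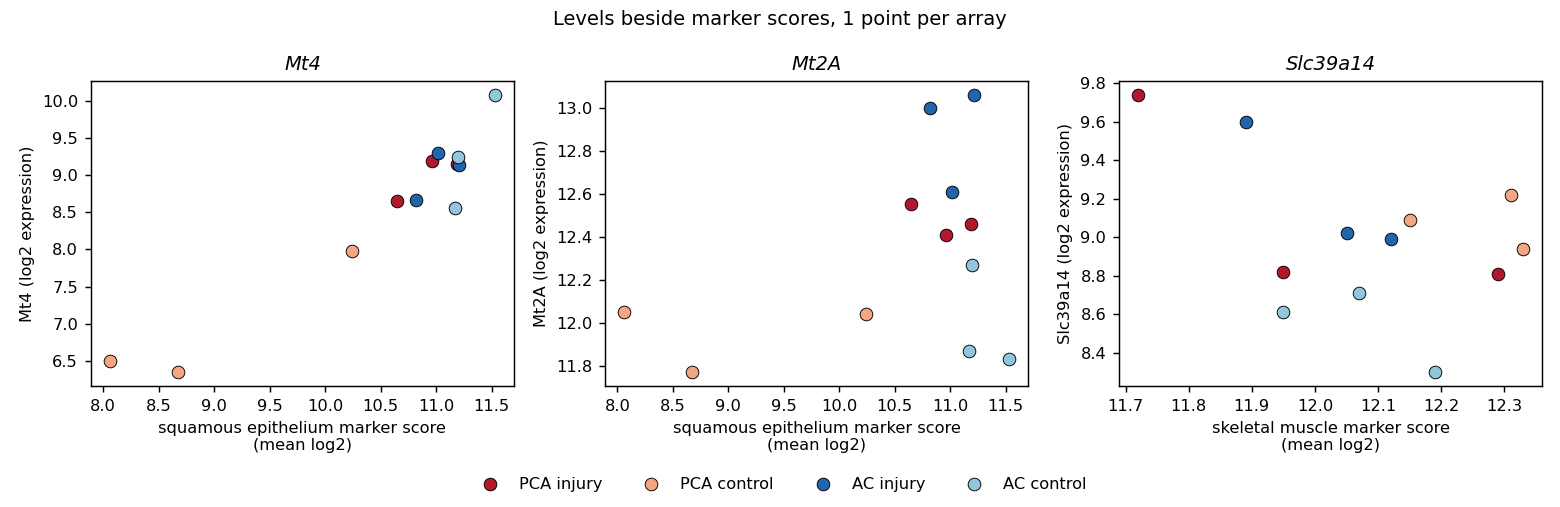
Each point is an array: log2 expression of Mt4 and Mt2A against the mean of 6 squamous epithelium markers, and of Slc39a14 against the mean of 8 skeletal muscle markers. Mt4 climbs with the squamous mean, Mt2A is spread from 11.83 to 13.06 among the AC arrays at similar squamous means, and the 2 highest Slc39a14 arrays have the lowest muscle means.

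Other zinc transporter genes were called in the PCA about as often as genes in general, where 25.8% of all genes were called, so their counts are no result about zinc transport. Of the 13 other zinc importer genes 2 rose in PCA injury, Slc39a6 by 1.13 ± 0.15 (adjusted p = 0.00067) and Slc39a10 by 0.32 ± 0.09 (adjusted p = 0.0295). Slc39a10 lost its call without any of 4 PCA arrays (PCA control 2 or 3, PCA injury 1 or 2), with an adjusted p of up to 0.107. Slc39a6 followed the squamous mean with an r of 0.87 and the macrophage mean with an r of 0.88 over the 12 arrays, and was at 0.72 ± 0.23 with the squamous mean as a covariate (adjusted p = 0.107). Of 10 zinc exporter genes Slc30a4 rose by 0.42 ± 0.07 (adjusted p = 0.00176), while Slc30a9, Slc30a3 and Slc30a5 fell by 0.52, 0.53 and 0.32 (adjusted p = 0.0028, 0.00988 and 0.0137), the last at an adjusted p of 0.0529 without PCA control 1. With the squamous or the macrophage mean as a covariate 0 of these importers and exporters passed in PCA. Those fits called 354 and 0 of all 14329 genes. Without the 3 arrays high in thyroid markers 1 importer and 3 exporters passed, where 2335 genes were called in all. The median was -0.02 for importers and -0.02 for exporters, where that of all genes was -0.03. Slc30a1, the exporter of the plasma membrane and a known Mtf1 target, was at 0.33 ± 0.16 in PCA (adjusted p = 0.151) and -0.18 ± 0.16 in AC (adjusted p = 0.565). Mtf1 itself was at -0.06 ± 0.08 in PCA (adjusted p = 0.643) and 0.00 ± 0.08 in AC (adjusted p = 0.988). In the AC 0 of 13 importers and 0 of 10 exporters passed in limma, with 3 and 1 at an unadjusted p under 0.05. Over all genes 1.91% were called there, so these counts too are no result about zinc transport.

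**Figure D5:**
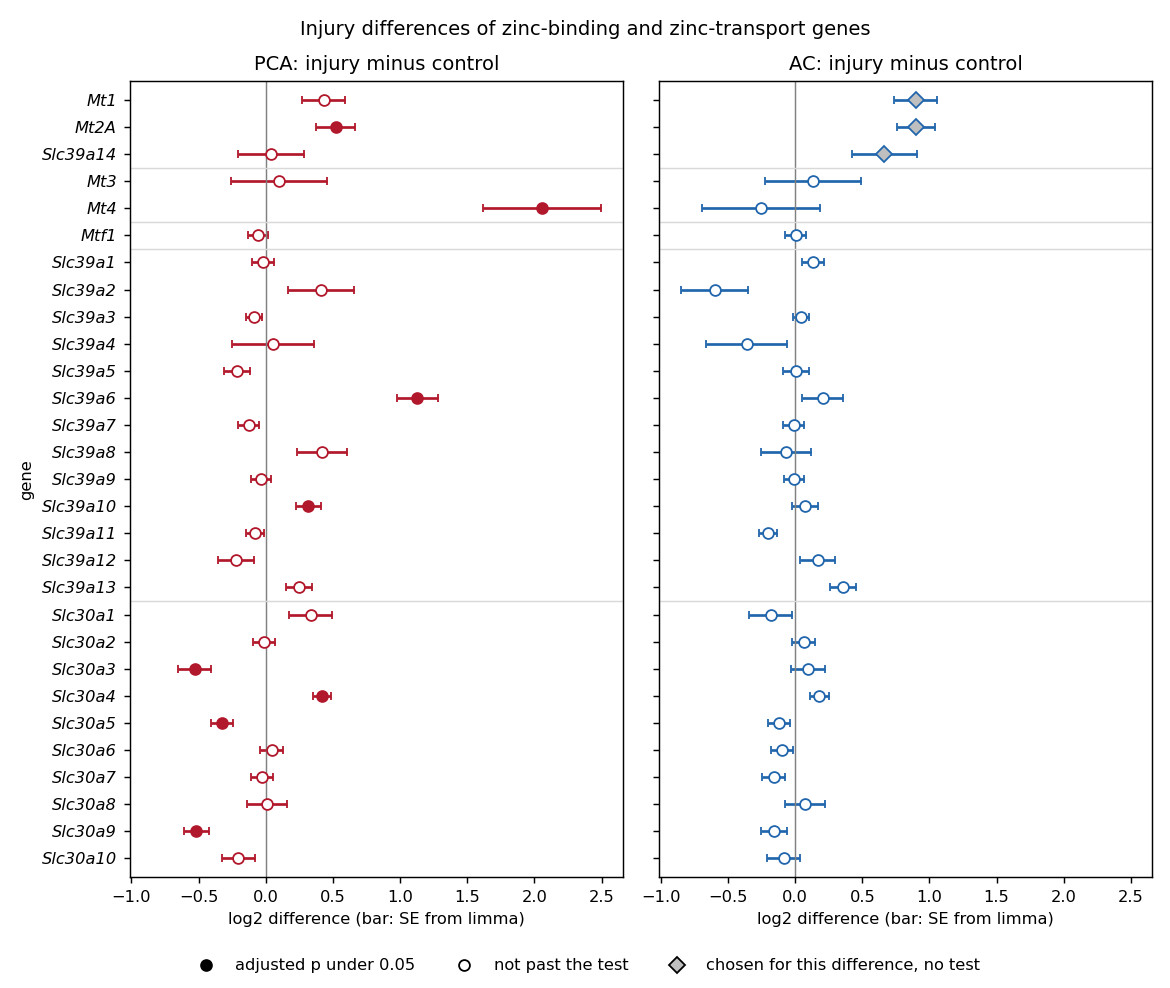
Log2 difference between injury and control in PCA (left) and AC (right) for the 3 members, other metallothioneins, Mtf1 and zinc transporters, with SE bars; filled circles passed the limma test and grey diamonds were not tested. Mt2A, Mt4, Slc39a6, Slc39a10 and Slc30a4 are the filled circles right of 0 in the PCA, and no circle in the AC is filled. Over all genes 25.8% were called in the PCA and 1.91% in the AC.

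Genes tied to glucocorticoids and to interleukin-6, the other known inducers of metallothioneins, were counted in the same way. Of 15 glucocorticoid-responsive genes 0 rose and 8 fell in PCA injury, among them Klf15 by 0.85, Tsc22d3 by 0.89 and Zbtb16 by 1.23, against 12.5% of all genes called lower. The list's median was -0.28, and the count was 4 without PCA control 3, 5 without PCA control 1 and 5 without the 3 arrays high in thyroid markers. With the squamous mean as a covariate 0 genes of this list and 0 of the interleukin-6 list passed in PCA. That fit called 354 of all 14329 genes, so a count of 0 says little about either list. In the AC Dusp1 alone fell, by 0.46 (adjusted p = 0.0437; named after its value was seen), and the median was -0.07. Of 23 interleukin-6 and Stat3 acute-phase genes 8 rose and 2 fell in PCA injury, with a median of 0.17. Over all genes 13.3% were called higher and 12.5% lower there. The risers were led by the protease inhibitors A2m (1.85 ± 0.24) and Timp1 (1.76 ± 0.24). The 2 that fell were Serpina3n (-1.54 ± 0.32, named after its value was seen) and Lifr (-0.98 ± 0.15). In AC injury A2m (1.32 ± 0.24), Timp1 (1.23 ± 0.24) and the receptor Il6r (0.40 ± 0.09, named after its value was seen) rose and Lifr fell by 0.69, with a median of 0.20, against 1.15% of all genes called higher. Il6 was at 0.81 in PCA (adjusted p = 0.134) and 0.91 in AC (adjusted p = 0.194). The AC counts depended on single arrays, as did that of all genes, which ran from 13 to 663 with 1 array left out. Without the 3 arrays high in thyroid markers 10 genes were called in all. Leaving out 1 array at a time gave 0 to 2 called genes of the glucocorticoid list and 0 to 6 of the interleukin-6 list, with 0 of the interleukin-6 genes without AC control 1, AC control 2, AC injury 2 or AC injury 3, and leaving out all 3 arrays high in thyroid markers gave 0 of each.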

How the data were processed

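For each of 12 arrays the authors deposited summarised log2 intensities, 1 per probe set. Per the submitters' processing notes RMA and Partek were used, and no version or role is stated. The log base was taken as 2 from the range (2.57 to 14.04). Array medians lay between 7.11 and 7.17. Other steps, the build and any probe filter: not given in the sources used here. Groups and array numbers came from the sample titles, and 30 to 50 mg of tissue and 100 ng of RNA per specimen from the labels' protocols.

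Of 27342 probe sets 15103 carry a single symbol in the platform annotation, 317 several and 11922 none; 15067 matched the RefSeq table of GRCr8 by gene identifier, which was used for names. Where a gene had more than 1 probe set (500 genes), its brightest by mean over all arrays was kept, giving 14329 genes. A limma fit (3.58.1, R 4.3.3) with a mean per group over all 12 arrays gave tests of both directions, adjusted by Benjamini-Hochberg over all genes, with a threshold of 0.05 (8 residual and 3.14 prior degrees of freedom). It was tested on simulated data. Precision is limited by the number of arrays. Promoter windows came from the RefSeq table of GRCr8, which holds Mt1 and Mt2A; Slc39a14 was not analysed there. Alternatives covered normalisation, dim-gene filters (mean log2 of 6 or 8), probe set choice, prior, array weights, groups fitted, replicate block, marker covariates and left-out arrays.

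The members and the 11 gene lists were chosen with earlier results of these data known. Members are named in full. From a list, the first gene and at most 4 called genes, ranked by adjusted p, were eligible, with all zinc transporters past the test, Mt3, Mt4, Mtf1 and Slc30a1; other names are marked as chosen after their values were seen. Patterns were compared by Pearson r among genes whose SD over the arrays was at least 0.2.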

Additional observations from a re-analysis of the deposited data

Results flagged for a closer look

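Among 56 genes named or eligible to be named, Slc31a2, known as a copper transporter related to the importer Slc31a1, was singled out. The reason was that its injured arrays lay above the controls in the PCA and below them in the AC. Injured arrays lay wholly above the controls for 18.2% of all genes in PCA and wholly below for 13.1% in AC. How many genes showed both was not counted. Slc31a2 measured 8.92 to 8.99 in PCA injury, against 8.50 to 8.72 in PCA control. In the AC it measured 8.71 to 9.02 in AC injury, against 9.03 to 9.30 in AC control. Within the AC its difference was -0.28 ± 0.10 and did not pass (limma, adjusted p = 0.152). The injury difference in AC minus that in PCA was -0.61, with an adjusted p of 0.0721 in the limma interaction term, which does not pass the threshold. Zbtb16 (0.0540), Ftl1, Nfe2l2 and Atox1 (0.0657 each) and Hmox1 (0.0710) had a smaller adjusted p in that term and did not pass either. For comparison, 22 of 14329 genes passed that term.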

How the results depend on the processing

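Precision was limited by 3 arrays per group. All 25 alternatives kept Mt1 and Mt2A higher in injured PCA and in injured AC. Several of them could not change the PCA estimates, which stayed at 0.43 for Mt1 and 0.52 for Mt2A. These were the left-out AC arrays, the dim-gene filters, the prior, the 2 groups alone and the replicate block. In AC the direction was the reason for the choice. In PCA, Mt2A lost its call with the squamous mean (0.51) or the macrophage mean (0.23) as a covariate and without the 3 arrays high in thyroid markers (0.46), and ranged from 0.43 to 0.57 with single arrays left out, where it was not called without PCA control 1 or PCA injury 1. Mt1 was at 0.18 with the macrophage covariate, ranged from 0.315 to 0.50 with single arrays left out and passed without AC injury 3. There its difference was unchanged at 0.43. Slc39a14 turned sign in PCA with array weights (-0.054), with the macrophage covariate (-0.94), without PCA control 2 (-0.03) and without PCA injury 1 (-0.27), and ranged from -0.27 to 0.20 with single arrays left out, never called. With single arrays left out the AC differences ran from 0.76 to 1.05 for Mt1, 0.81 to 1.04 for Mt2A and 0.46 to 0.77 for Slc39a14, which was at 0.20 with the macrophage covariate. Mt4 in AC ranged from -0.62 to 0.14 with single arrays left out, turning to 0.14 without AC control 1. The 3697 genes called in PCA became 2257 with its 2 groups fitted alone, 354 with the squamous and 0 with the macrophage covariate (1203 at an unadjusted p under 0.05 in limma), 2335 without the thyroid-high arrays, and 2466 to 3558 with single arrays left out. The 274 called in AC became 703 with array weights, 619 with its 2 groups alone, 131 and 1 with the squamous and macrophage covariates, 10 without the thyroid-high arrays, and 13 (without AC injury 2) to 663 (without PCA injury 1) with single arrays left out. The cause of these shifts was not tested.

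With the replicate number as a block, Mt1 was at 0.43 (adjusted p = 0.114), Mt2A at 0.52 (adjusted p = 0.0455) and Slc39a14 at 0.04 (adjusted p = 0.938) in PCA, and 3239 genes were called in PCA and 59 in AC. The numbers were not taken as pairs: deviations from the group mean of equally numbered arrays correlated at -0.24, -0.38 and 0.08 between the PCA groups and at 0.15, 0.12 and 0.04 between the AC groups, and at -0.39, 0.34 and 0.27 between PCA injury and AC injury, whose arrays numbered 2 were both high in thyroid markers. Within a muscle, 0 of 6 PCA and 2 of 6 AC arrays correlated best with their own number.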

Other observations

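Iron-handling genes bear on the metals that Slc39a14 carries. They were counted against the share of all genes called in the PCA, 13.3% higher and 12.5% lower, and in the AC, 1.91% in either direction. Of 24 measured, 5 rose and 4 fell in PCA injury, with a median of 0.03. The ferritin light chain Ftl1 rose by 1.10 ± 0.10, the haem-degrading enzyme Hmox1 by 2.78 ± 0.28 and the phagosomal metal transporter Slc11a1 by 2.53 ± 0.37, while the transferrin receptor Tfrc fell by 0.76 and the mitochondrial iron carrier Slc25a28 by 0.45. Chosen after their values were seen, the iron exporter Slc40a1 and Steap3 also rose (0.48 and 0.52), and Tf and Steap4 fell by 0.62 and 0.36. In the AC 0 of the 24 passed in limma (7 at an unadjusted p under 0.05), with Hmox1 at 1.04 (adjusted p = 0.0803) and Ftl1 at 0.40 (adjusted p = 0.0653). Slc11a1 and Hmox1 are known from macrophages, whose marker mean was also higher in the injured arrays, as given above. Neither gene was correlated with that mean, and the part of macrophages in these values was not tested.

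Of all genes 25.8% were called in the PCA and 1.91% in the AC. Of 10 copper-handling genes 3 rose in PCA injury, Atox1 (0.40 ± 0.07), Slc31a1 (0.36 ± 0.10) and Slc31a2 (0.33 ± 0.10), and Atp7b fell by 0.95; 0 passed in the AC in limma (1 had an unadjusted p under 0.05). Among 19 targets or partners of the oxidative stress factor Nfe2l2 (Nrf2), 7 rose and 1 fell in PCA injury, among them Nfe2l2 (0.62 ± 0.08) and the cystine importer Slc7a11 (1.05 ± 0.23), and 0 passed in the AC in limma (1 at an unadjusted p under 0.05). Of 15 superoxide, peroxide and glutathione enzymes 5 rose and 2 fell in PCA injury, with Gpx7 at 0.80 ± 0.15 and the mitochondrial enzymes Sod2 and Prdx3 lower by log2 differences of -0.62 and -0.63. In AC injury Gpx3 rose (0.72, adjusted p = 0.0437, named after its value was seen). Without the 3 arrays high in thyroid markers, the genes called in PCA were 6 of the iron list, 1 of the copper list, 5 of the Nrf2 list and 4 of the enzyme list. With the squamous mean as a covariate they were 2 iron, 0 copper, 1 Nrf2 and 0 enzyme list genes. With the macrophage mean they were 0 of each. Over all 14329 genes these fits called 354 and 0. With single arrays left out, the PCA counts ran from 7 to 10 for the iron list, 2 to 4 for the copper list (2 without PCA control 1, PCA control 3 or PCA injury 1), 4 to 9 for the Nrf2 list (4 without PCA control 2, PCA control 3 or PCA injury 3, 5 without PCA injury 1) and 4 to 8 for the enzyme list (4 without PCA control 3). In the AC they ran from 0 to 2 for the iron list, 0 to 1 for the Nrf2 list and 0 to 1 for the enzyme list, where Gpx3 was the only call with all arrays.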
